A study of Mus musculus with 12 samples.

Results

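The genes described here are 10 genes that mark the cells of blood vessel walls: Pecam1, Cdh5, Kdr, Flt1, Tek, Tie1, Eng, Esam and Emcn for the endothelium, the inner lining, and Pdgfrb for pericytes, the contractile cells wrapped around capillaries. They were taken by symbol from the probe annotation, and every probe carrying one of these symbols was read, which gave 15 of the 45281 probes and 10 of the 19053 gene symbols on the array. The study measured RNA from newborn mice (postnatal day 0) on a C57BL/6 background that were either wild type for keratin 1 (Krt1+/+) or lacked it (Krt1-/-); no other allele or treatment is named in the labels. Keratin 1 is a structural protein of the suprabasal keratinocytes of the epidermis. RNA came either from the separated epidermis or from full-thickness skin, which also holds the dermis with its vessels, so there were 4 groups of 3 one-colour Illumina bead arrays each. Nothing in the labels tells if replicates are different mice, so the p-values below measure the spread between arrays, which may be technical.

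Endothelial cells hold together through VE-cadherin (Cdh5) and PECAM-1, respond to vascular endothelial growth factor (VEGF) through the receptors encoded by Kdr and Flt1, and to angiopoietins through the receptor encoded by Tek, with Tie1 as its co-receptor. Endoglin (Eng) is a co-receptor for bone morphogenetic proteins (BMPs) and transforming growth factor beta. Pericytes are drawn to new capillaries by platelet-derived growth factor B from the endothelium, which binds the receptor encoded by Pdgfrb. In skin the vessels lie in the dermis and subcutis, and the epidermis has none.

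Factors of the ETS family bind a core of GGAA and drive many endothelial genes, so the sequences upstream of the members are shown with each GGAA, read on either strand as GGAA or TTCC, in capitals. RefSeq promoter sequences (build GRCm38.p6) were found for 6 of the 10 genes, Kdr, Flt1, Tek, Tie1, Eng and Emcn, and the 250 bases before the start of each gene are given 5′ to 3′ on the gene's strand. The first 3 lines are genes that were lower in the skin labelled Krt1-/-, Eng (chr2:32646345-32646594 on the plus strand), Tie1 (chr4:118489850-118490099 on the minus strand) and Tek (chr4:94739039-94739288 on the plus strand). The last 2 are genes that did not pass that test, Flt1 (chr5:147726012-147726261 on the minus strand) and Emcn (chr3:137340828-137341077 on the plus strand).
Eng: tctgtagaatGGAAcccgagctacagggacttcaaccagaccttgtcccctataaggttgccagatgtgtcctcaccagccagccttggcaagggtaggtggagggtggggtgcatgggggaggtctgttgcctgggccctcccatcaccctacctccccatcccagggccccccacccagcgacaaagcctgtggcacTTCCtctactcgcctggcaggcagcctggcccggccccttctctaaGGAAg
Tie1: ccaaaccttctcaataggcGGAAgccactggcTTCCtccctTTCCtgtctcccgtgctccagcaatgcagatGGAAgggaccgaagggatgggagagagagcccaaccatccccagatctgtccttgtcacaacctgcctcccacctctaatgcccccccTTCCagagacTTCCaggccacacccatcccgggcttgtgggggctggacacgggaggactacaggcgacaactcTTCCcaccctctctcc
Tek: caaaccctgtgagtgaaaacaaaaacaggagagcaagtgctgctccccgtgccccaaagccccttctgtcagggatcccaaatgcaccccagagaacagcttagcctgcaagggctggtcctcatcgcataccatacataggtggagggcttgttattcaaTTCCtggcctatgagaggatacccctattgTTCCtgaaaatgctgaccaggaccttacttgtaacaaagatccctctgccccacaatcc
Flt1: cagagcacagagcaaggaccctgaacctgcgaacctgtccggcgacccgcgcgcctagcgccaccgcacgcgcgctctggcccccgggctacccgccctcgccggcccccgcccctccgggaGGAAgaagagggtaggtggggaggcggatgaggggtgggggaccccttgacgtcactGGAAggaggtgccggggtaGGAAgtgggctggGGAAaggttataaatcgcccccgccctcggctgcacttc
Emcn: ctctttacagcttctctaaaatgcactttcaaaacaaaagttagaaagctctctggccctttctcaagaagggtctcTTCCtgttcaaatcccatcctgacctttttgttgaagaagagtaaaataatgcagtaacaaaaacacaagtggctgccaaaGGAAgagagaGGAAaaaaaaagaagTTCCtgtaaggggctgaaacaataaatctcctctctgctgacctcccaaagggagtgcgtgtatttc
Tie1 held 7 GGAA cores, Flt1 and Emcn 4 each, Eng 3 and Tek 2, and the window of Kdr, not shown, held 4. Of all 32851 RefSeq windows of 250 bases, 93.45% held at least 1 such core, with a median of 3 per window, and 8.694% held 6 or more. The longer motif AGGAAG, which contains the core and was also searched on both strands, occurred 2 times in Flt1, Eng and Emcn, 1 time in Tie1 and not in Tek or Kdr, against 29.48% of all windows with at least 1. GATAA, the core bound by GATA factors, was in none of the 6 windows and in 22.58% of all windows. The genes that passed and those that did not both carried the core, as did most windows.

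The arrays were similar in overall brightness. The median bead intensity lay between 93.3 and 105.1 and 37.9% to 44.0% of probes were detected at a detection p under 0.05, and arrays of a group correlated at 0.967 to 0.984. Krt1 itself fell by 4.71 on the log2 scale in the skin labelled Krt1-/- (26.1-fold, limma adjusted p 7.5e-05), from 12.12 ± 0.78 to 7.41 ± 0.84 (SD, n = 3). In epidermis the difference was -1.08 (95% confidence interval -2.33 to 0.17, limma adjusted p 0.18), and Krt1 was detected on all 3 arrays labelled Krt1-/- epidermis, at intensities of 987 to 2921. The targeted gene therefore did not separate the genotypes in epidermis. Over the 16240 probes detected on no array, Krt1+/+ epidermis and Krt1-/- skin, which stand in the first 6 columns of the deposited table, resembled each other more (mean correlation -0.046) than they did the other 6 arrays (-0.148 to -0.105), and the other pair of groups did likewise (-0.0425). The arrays thus form 2 sets that cross genotype and tissue. A genotype difference inside 1 tissue is also a difference between these sets, the 2 cannot be told apart there, and each direction below is between the arrays as labelled. Of the 1727 genes that passed the genotype test in both tissues, 1066 (61.7%) moved in opposite directions.

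The signal of the members was a signal of full-thickness skin. 11 of the 15 probes, from 9 genes, were detected on at least 3 of the 12 arrays and entered the test. Each gene is read below by its brightest kept probe, and a level is compared only within 1 probe. Of these 9 genes, 8 were detected on all 6 skin arrays, and Tie1 was detected on the 3 Krt1+/+ skin arrays and on 1 of 3 Krt1-/- skin arrays. In epidermis Pecam1, Cdh5, Flt1 and Pdgfrb were undetected on all 6 arrays by their brightest probes. A dimmer kept Pecam1 probe was detected on 1 of the 6, Krt1-/- epidermis replicate 3, at an intensity of 112. Without the skin arrays only 1 member probe, that of Eng, would have been kept, so the count of members that differ between the tissues was fixed in part by this filter. Kdr, the main VEGF receptor of the endothelium and one of its defining markers, was not measurable on these arrays in either tissue: its 2 probes were detected in 2 of 24 probe and array pairs, with intensities of 83.5 to 115.5, and were not tested.

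**Figure D1:**
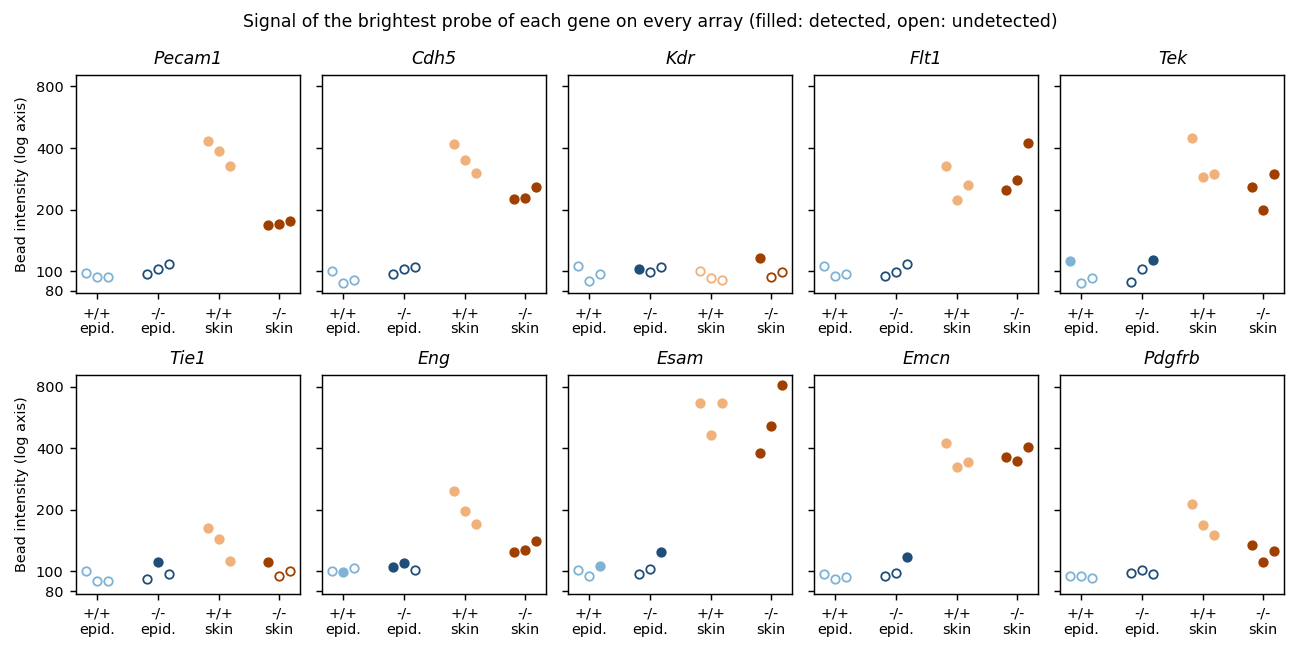
Bead intensity (log axis) of the brightest probe of each gene on each of the 12 arrays, by genotype and tissue; filled points were detected at a detection p under 0.05 and open points were not. Epidermis arrays sit near 100 for every gene, while skin arrays reach 818 for Esam, and Pecam1, Cdh5, Eng, Tie1 and Pdgfrb show Krt1-/- skin arrays wholly below Krt1+/+ skin arrays.

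Between the 2 skin groups, 6 of the 9 measured members were lower in the skin labelled Krt1-/- and none was higher, beside 15.9% of all 12099 genes tested that were lower and 14.3% that were higher (30.2% in either direction). The 6 were Pecam1, Tie1, Eng, Pdgfrb, Cdh5 and Tek, with differences of 1.66-fold to 3.60-fold. Flt1, Esam and Emcn did not pass. The median difference of the 9 genes was -0.93 on the log2 scale, against -0.07 for all genes tested. In whole tissue RNA, fewer vascular cells and less RNA per cell cannot be told apart.

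**Figure D2:**
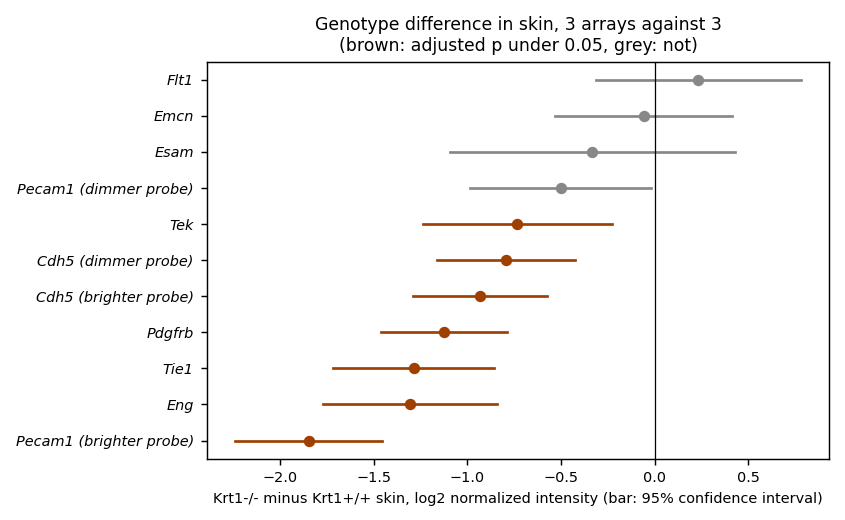
Difference between Krt1-/- and Krt1+/+ skin for each kept member probe, in log2 normalized intensity with its 95% confidence interval; brown marks an adjusted p under 0.05. Pecam1 lies furthest to the left at -1.85, and the intervals of Flt1, Esam and Emcn span 0.

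Among the junction and adhesion genes, Pecam1, an immunoglobulin-family receptor concentrated where endothelial cells touch, gave intensities of 432, 388 and 326 in Krt1+/+ skin and 169, 170 and 177 in Krt1-/- skin. The groups did not overlap. On the log2 normalized scale they read 8.10 to 8.50 in Krt1+/+ skin and 6.25 to 6.82 in Krt1-/- skin. The difference was -1.85 ± 0.18 on the log2 scale (SE, 3.60-fold lower, limma adjusted p 1.35e-05). Cdh5, the cadherin of endothelial adherens junctions, stood at 421, 350 and 303 in Krt1+/+ skin and at 227, 229 and 257 in Krt1-/- skin, again without overlap. It fell by 0.93 (SE 0.17, 1.91-fold, limma adjusted p 0.00105).

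Esam, an adhesion molecule of endothelial tight junctions, did not pass. Its intensities were 664, 464 and 665 in Krt1+/+ skin and 379, 516 and 818 in Krt1-/- skin, and the groups overlapped. They also overlapped on the log2 normalized scale, at 8.90, 8.85 and 9.75 against 8.03, 9.11 and 9.37. The difference was -0.33 (95% confidence interval -1.09 to 0.43, limma adjusted p 0.533), an interval that leaves room for a fall as large as that of Cdh5. Emcn, a sialomucin on the surface of capillary and venous endothelium, gave 426, 323 and 342 against 365, 347 and 405. The Emcn groups overlapped. The interval of the difference, -0.53 to 0.41 around -0.06 (limma adjusted p 0.877), did not reach the fall measured for Cdh5 or for the brighter Pecam1 probe.

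Of the VEGF receptors, only Flt1 could be read, and only through 1 of its 2 probes, since the other was detected on no array (87.4 to 100.7). Flt1, which binds VEGF tightly and in its soluble form keeps it from Kdr, stood at 326, 224 and 262 in Krt1+/+ skin and at 250, 280 and 421 in Krt1-/- skin. The highest array belonged to Krt1-/- skin and the other arrays were interleaved. The difference was 0.23 (95% confidence interval -0.31 to 0.78, limma adjusted p 0.544).

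The angiopoietin receptors were both lower. Tie1 gave 164, 144 and 113 in Krt1+/+ skin and 111, 94.5 and 100.5 in Krt1-/- skin, where only 1 array was above the detection limit. Tie1 fell by 1.29 (SE 0.20, 2.44-fold, limma adjusted p 0.00042). The nearest arrays of the groups read 113 and 111 in intensity, and 5.42 and 4.68 on the log2 normalized scale. Tek, the receptor itself, stood at 448, 288 and 297 in Krt1+/+ skin and at 257, 200 and 297 in Krt1-/- skin. Here the groups overlapped in intensity, but not on the log2 normalized scale that was tested (7.86 to 8.27 against 7.21 to 7.62). Tek fell by 0.73 (SE 0.23, 1.66-fold, limma adjusted p 0.032). This was the weakest of the 6 calls: with the arrays median-centred in place of quantile-normalized the adjusted p was 0.107, with no detection filter it was 0.0675, and it was 0.0848 without Krt1+/+ skin replicate 1, 0.0993 without Krt1+/+ skin replicate 3, 0.0906 without Krt1-/- skin replicate 1 and 0.0908 without Krt1-/- skin replicate 2.

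Eng, the endoglin co-receptor, gave 247, 198 and 170 in Krt1+/+ skin and 125, 127 and 140 in Krt1-/- skin. The groups did not overlap, and Eng fell by 1.31 (SE 0.22, 2.47-fold, limma adjusted p 0.00061). Pdgfrb, the pericyte receptor and also a gene of dermal fibroblasts, stood at 214, 168 and 151 in Krt1+/+ skin and at 135, 112 and 126 in Krt1-/- skin. It too fell without overlap, by 1.12 (SE 0.16, 2.18-fold, limma adjusted p 0.00019).

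A second detected probe existed for 2 members, Pecam1 and Cdh5, and the Pecam1 probes disagreed. The dimmer Pecam1 probe, annotated to another RefSeq transcript, read 241, 199 and 217 in Krt1+/+ skin and 168, 174 and 201 in Krt1-/- skin. Its groups overlapped slightly and its difference, -0.50 ± 0.22 (SE), did not pass (limma adjusted p 0.113), so the size and the call for Pecam1 depend on the probe. Array by array, the brighter probe stood 0.92 to 1.53 above the dimmer one on the log2 scale in Krt1+/+ skin and -0.31 to 0.02 in Krt1-/- skin, a change of -1.34 (two-sided exact permutation test, p 0.1, the smallest that 3 arrays against 3 allow). The 2 Cdh5 probes moved together: the dimmer one fell by 0.80 (SE 0.17, 1.74-fold, limma adjusted p 0.00368), and the gap between the probes changed by -0.14 (exact permutation p 0.6). The remaining Pecam1 probe was detected on no array.

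**Figure D3:**
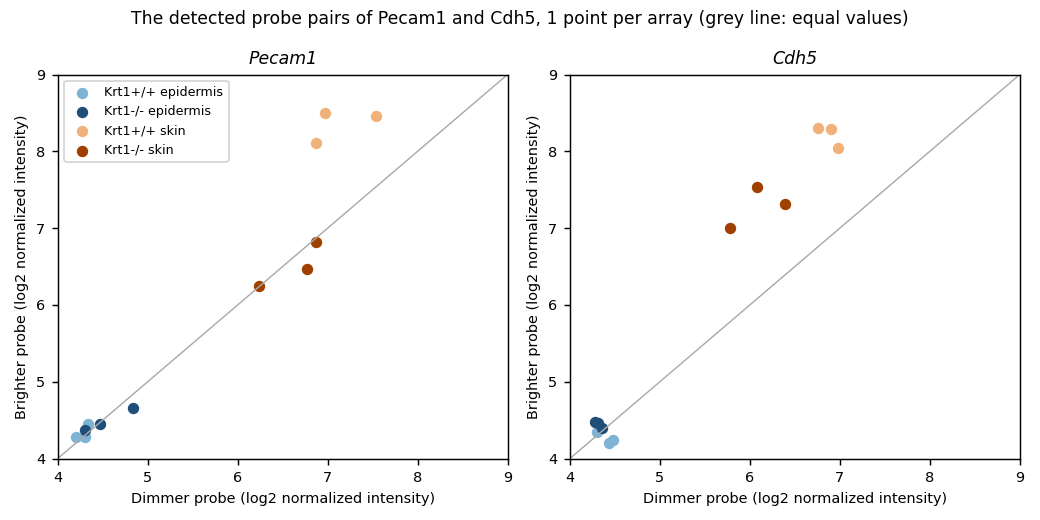
Brighter against dimmer detected probe of Pecam1 and of Cdh5, in log2 normalized intensity, 1 point per array coloured by group, with a grey line of equal values. For Pecam1 the Krt1+/+ skin arrays lie 0.92 to 1.53 above the line while Krt1-/- skin arrays lie on or under it; for Cdh5 both skin groups lie 0.93 to 1.55 above it.

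Whether the members that passed moved apart from those that did not was examined within each array, as the log2 difference between 1 of the 6 genes that fell and 1 of the 3 that did not. All 18 such differences were lower in Krt1-/- skin, by 0.40 to 2.08, for instance by 2.08 between Pecam1 and Flt1. In 12 of the 18 the 2 skin groups did not overlap, which gave the smallest possible exact permutation p of 0.1, and the largest p was 0.3 (0.15 to 0.3 after Benjamini-Hochberg adjustment over the 18). The exact test cannot pass at 3 arrays a group, and since the genes were split by their results, the direction of these values is a description.

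In epidermis no member passed the genotype test, beside 32.0% of all genes tested (15.1% higher and 16.9% lower). Differences ran from -0.07 for Flt1 to 0.27 for Emcn, all at or near the detection limit. By their brightest probes, Pecam1, Cdh5, Flt1 and Pdgfrb had intensities of 87.1 to 108.6 there and were undetected in both genotypes. Eng was detected on 1 of 3 Krt1+/+ arrays (100.2, 99.2 and 103.7) and on 2 of 3 arrays labelled Krt1-/- (105.0, 110.2 and 101.2). Tek and Esam were detected on 1 of 3 in each group, and Tie1 and Emcn on 1 of 3 in the Krt1-/- group. In that group Tek, Esam, Emcn and the dimmer Pecam1 probe were detected on the same array, replicate 3, and Tie1 on replicate 2. On replicate 3 Emcn stood at 5.08 on the log2 normalized scale, against 4.38 and 4.26 on replicates 1 and 2. The genotype difference itself differed between epidermis and skin for 5 of 9 members, Pecam1, Cdh5, Tie1, Eng and Pdgfrb, all in the direction of a larger fall in skin, beside 16.1% of all genes with a difference in that direction. For Pecam1 this held for the brighter probe only. The dimmer one, at 0.76 for epidermis minus skin, did not pass (limma adjusted p 0.0834). The epidermis intensities bound the vascular signal of the separated epidermis in both genotypes and cannot show a change below that limit.

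Full-thickness skin stood above epidermis. Within a genotype the 2 tissues lie in different array sets, so a tissue difference there is also a difference between sets, whereas the mean of both tissue differences holds each set equally. In that mean 9 of 9 measured members were higher in skin, beside 18.7% of all genes tested, from 0.79 ± 0.14 (SE, limma adjusted p 0.00066) for Tie1 to 4.35 ± 0.25 (adjusted p 1.1e-08) for Esam on the log2 scale. In Krt1+/+ mice all 9 measured members were higher in skin, beside 19.7% of all genes tested, and in Krt1-/- mice 8 of 9 were, beside 19.5%; because the probes passed the filter through the skin arrays, no such count is evidence about the members. Where a gene was undetected in epidermis only a lower bound can be given, from the detection limit of each array. In Krt1+/+ mice Pecam1 was at least 12.8-fold, Emcn at least 11.9-fold, Cdh5 at least 11.6-fold, Flt1 at least 7.52-fold, Pdgfrb at least 3.61-fold and Tie1 at least 2.17-fold higher in skin. By the dimmer probes the bounds were smaller, at least 5.46-fold for Pecam1 and 4.59-fold for Cdh5. Esam, Tek and Eng were detected on 1 of 3 epidermis arrays, so their ratios of group means, 24.2, 12.4 and 4.94, rest on a denominator near the detection limit. The limma adjusted p was 7.8e-09 for Cdh5 and 4.3e-05 for Tie1, the ends of the range.

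In Krt1-/- mice the same comparison gave bounds of at least 8.81-fold for Flt1, 6.06-fold for Cdh5, 3.55-fold for Pecam1 and 1.65-fold for Pdgfrb. The dimmer Cdh5 probe gave at least 2.64-fold. The dimmer Pecam1 probe, detected on 1 of 3 epidermis arrays, gave a ratio of 4.25. Esam, Emcn and Tek were detected on 1 of 3 epidermis arrays of this genotype and Eng on 2 of 3, and the ratios of the group means, again with a denominator near the detection limit, were 17.3, 12.3, 7.29 and 1.91 (limma adjusted p 0.0038 for Eng). Tie1 was the exception, with a difference of 0.07 (95% confidence interval -0.37 to 0.50, limma adjusted p 0.819) and 1 detected array in each tissue. The levels of Tie1 in Krt1-/- skin and in epidermis were thus not distinguishable on these arrays.

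The genes around the members in their signalling pathways were read from lists by role. Each count of calls in skin from these lists stands beside 15.9% of all genes tested that were lower and 14.3% that were higher. For the VEGF family, 3 of 6 measured ligands and co-receptors were lower in Krt1-/- skin and none was higher. Vegfd, a ligand mainly of lymphatic endothelium, fell by 1.05 (SE 0.27, limma adjusted p 0.0102), Vegfb, a ligand of Flt1, by 1.10 (SE 0.31, adjusted p 0.0174) and the co-receptor Nrp1 by 0.64 (SE 0.22, adjusted p 0.0459). Vegfa, the main ligand of Kdr, had a difference of 0.86 (SE 0.35, adjusted p 0.0816), with intensities of 262 to 455 in Krt1+/+ skin and 363 to 874 in Krt1-/- skin. Vegfa did not pass, and its groups overlapped.

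For the angiopoietin pathway 1 of 4 measured genes passed, near the 30.2% of all genes that passed in either direction. Angptl1, a secreted protein of the angiopoietin-like family, fell by 1.37 (SE 0.17, limma adjusted p 7.6e-05). Svep1, an extracellular matrix protein, stood at -0.70 (adjusted p 0.0527), Ptprb, the phosphatase that dampens Tek, at 0.64 (adjusted p 0.127) and Angpt2, the ligand that antagonises Tek in many settings, at 0.26 (adjusted p 0.29). In epidermis, by contrast, Angpt2 fell by 2.28 in the arrays labelled Krt1-/- (limma adjusted p 1.66e-06), the reverse sign of its skin value.

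The endoglin and BMP pathway showed no common direction in skin: 2 of 10 measured genes were higher and 1 was lower, with a median of 0.01. These counts lie near the shares of all genes, 14.3% higher and 15.9% lower. Id2, a target of BMP signalling, was higher by 1.09 (SE 0.21, limma adjusted p 0.00189) and Bmpr2, the type II receptor, by 0.56 (SE 0.14, adjusted p 0.0114), while the signal transducer Smad5 fell by 0.74 (SE 0.19, adjusted p 0.0109). Further probes of Id2 (0.57 and 0.61), Bmpr2 (0.42 and 0.15) and Smad5 (0.38) did not pass. Id2 and Bmpr2 moved the other way in epidermis, where they fell by 1.04 and 0.78 (adjusted p 0.00231 and 0.00121). For the Notch pathway, 3 of 8 measured genes were lower in Krt1-/- skin and 1 was higher: the ligand Jag1 rose by 1.65 (SE 0.24, adjusted p 0.00026), and the ligands Jag2 and Dll1 and the target Hes1 fell by 1.27, 0.73 and 0.85 (adjusted p 0.00331, 0.0146 and 0.0337). Jag1 and Jag2 also passed in epidermis with the opposite signs, -1.85 and 1.21.

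Other endothelial markers were mostly lower or did not pass. In Krt1-/- skin 7 of 19 measured markers were lower and 1 was higher, with a median of -0.43. Aplnr, the apelin receptor, read 328 to 475 in Krt1+/+ skin and 201 to 235 in Krt1-/- skin and fell by 1.47 (SE 0.21, limma adjusted p 0.00024). Cldn5, the claudin of endothelial tight junctions, fell by 1.44 (SE 0.31, adjusted p 0.00364) and Egfl7, a secreted endothelial factor, by 1.00 (SE 0.22, adjusted p 0.00407), although a second Egfl7 probe (-0.50) did not pass. Thbd, the thrombin receptor thrombomodulin, which keratinocytes also express, was higher by 2.44 (SE 0.36, adjusted p 0.00026), from 163 to 278 in Krt1+/+ skin to 531 to 1401 in Krt1-/- skin, and was higher in epidermis too, by 1.20 (adjusted p 0.0203).

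Among transcription factors that endothelial cells use, 5 of 13 measured were lower and 1 was higher in Krt1-/- skin. Sox18, a regulator of vessel and lymphatic development, fell by 1.22 (SE 0.24, limma adjusted p 0.00223), and the ETS factors Fli1 and Ets1 fell by 0.82 (SE 0.16, adjusted p 0.00247) and 0.67 (SE 0.15, adjusted p 0.00532). Klf4, which is also a keratinocyte factor, rose by 1.01 (SE 0.21, adjusted p 0.00278) on its brightest probe, while 2 further probes at -0.16 and -0.08 did not pass. Of 4 measured genes of endothelial activation none passed: Vcam1 stood at -0.52, Selp at 0.26, Ackr1 at -0.20 and Icam1 at 0.05 (limma adjusted p 0.108 to 0.937). Of 6 lymphatic genes 1 passed, beside 30.2% of all genes. It was Ccl21a, a chemokine of lymphatic endothelium, which fell by 1.11 (SE 0.31, limma adjusted p 0.0167). The lymphatic markers Lyve1 (0.13), Reln (-0.23) and Itga9 (-0.55) did not pass.

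Around Pdgfrb, 6 of 14 measured genes of pericytes and vascular smooth muscle were lower in Krt1-/- skin and none was higher, with a median of -0.69. Anpep, an aminopeptidase on pericytes and other mesenchymal cells, fell by 2.73 (SE 0.20, limma adjusted p 9.6e-07), from 174 to 316 in Krt1+/+ skin to 102 to 103 in Krt1-/- skin, where 1 of 3 arrays detected it. The adhesion molecule Mcam fell by 1.68 (SE 0.25, adjusted p 0.00029), the proteoglycan Cspg4 (NG2) by 1.04 (SE 0.24, adjusted p 0.00571) and smooth muscle myosin Myh11 by 0.90 (SE 0.19, adjusted p 0.00318). Of the platelet-derived growth factors and related receptors, 3 of 5 were lower and 1 was higher. Pdgfb, the ligand of Pdgfrb, read 232 to 299 in Krt1+/+ skin and 170 to 198 in Krt1-/- skin and fell by 0.95 (SE 0.22, adjusted p 0.00534). Pdgfa fell by 0.97 (SE 0.19, adjusted p 0.00204) and Pdgfrl, a receptor-like protein, by 0.93 (SE 0.17, adjusted p 0.00124). Pdgfc rose by 0.71 (SE 0.22, adjusted p 0.0273) on its brightest probe, with another at -0.02.

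Pdgfa and Pdgfb differed from most of the genes above in that they also fell in epidermis, by 1.04 and 0.75 (limma adjusted p 0.00113 and 0.0179). Averaged over the tissues, so that each array set enters both genotypes equally, Pdgfa fell by 1.00 (SE 0.13, adjusted p 0.00024) and Pdgfb by 0.85 (SE 0.15, adjusted p 0.00194). Among the members the averaged difference passed for 5 of 9, beside 12.4% of all genes that were lower: Pecam1 (-0.85), Eng (-0.62), Tie1 (-0.57), Pdgfrb (-0.53) and Cdh5 (-0.37), with Tek at -0.35 (adjusted p 0.161). The Pecam1 call rests on its brighter probe, since the dimmer one stood at -0.12 and did not pass (limma adjusted p 0.627). Since the epidermis values of the members lay at the detection limit, these averages carry the skin difference alone and do not separate it from the array sets.

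The basement membrane beneath endothelium and around pericytes was read through 9 genes, which also serve the epidermal and other basement membranes. In Krt1-/- skin 7 were lower and 1 was higher, with a median of -1.21. Col4a2, a collagen IV chain, read 2828 to 5197 in Krt1+/+ skin and 1144 to 1733 in Krt1-/- skin and fell by 1.76 (SE 0.26, limma adjusted p 0.00029). The matrix glycoprotein Sparc fell by 1.85 (SE 0.30, adjusted p 0.0005), with 1 further probe that fell and 1 that rose (0.92), and the laminin chain Lama5 fell by 1.21 (SE 0.23, adjusted p 0.00187). Lamb1, another laminin chain, rose by 1.99 (SE 0.18, adjusted p 6.3e-06) and fell by 2.36 in epidermis (adjusted p 1.7e-06). Averaged over the tissues 5 of the 9 were lower and none was higher, beside 12.4% of all genes that were lower. Among the 5 were Col4a2 at -1.02 and Col4a1 at -0.73 (limma adjusted p 0.00198 and 0.00851).

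Of 13 measured hypoxia-responsive genes, which include inducers of vessel growth, 7 were higher and 1 was lower in Krt1-/- skin, beside 14.3% and 15.9% of all genes, and 5 did not pass. Their median was 0.51. Adm, the vasoactive peptide adrenomedullin, rose by 1.50 (SE 0.30, limma adjusted p 0.0023), the glycolytic enzyme Pgk1 by 0.83 (SE 0.19, adjusted p 0.00589) and the oxygen sensor Egln3 by 1.73 (SE 0.31, adjusted p 0.00108), though 2 further Egln3 probes (0.09 and -0.07) did not pass. Aldoa, another glycolytic enzyme, fell by 1.00 in skin (SE 0.20, adjusted p 0.0021) and rose by 2.02 in epidermis (adjusted p 1.0e-05). In epidermis 6 of 13 were higher and 1 was lower, beside 15.1% and 16.9% of all genes. Averaged over the tissues 7 were higher and none was lower, beside 1266 higher and 1500 lower of all 12099 genes. Adm stood at 1.29 and Pgk1 at 0.81 in that average (limma adjusted p 0.00102 and 0.00126). Adm and Pgk1 were higher in each tissue taken alone.

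**Figure D4:**
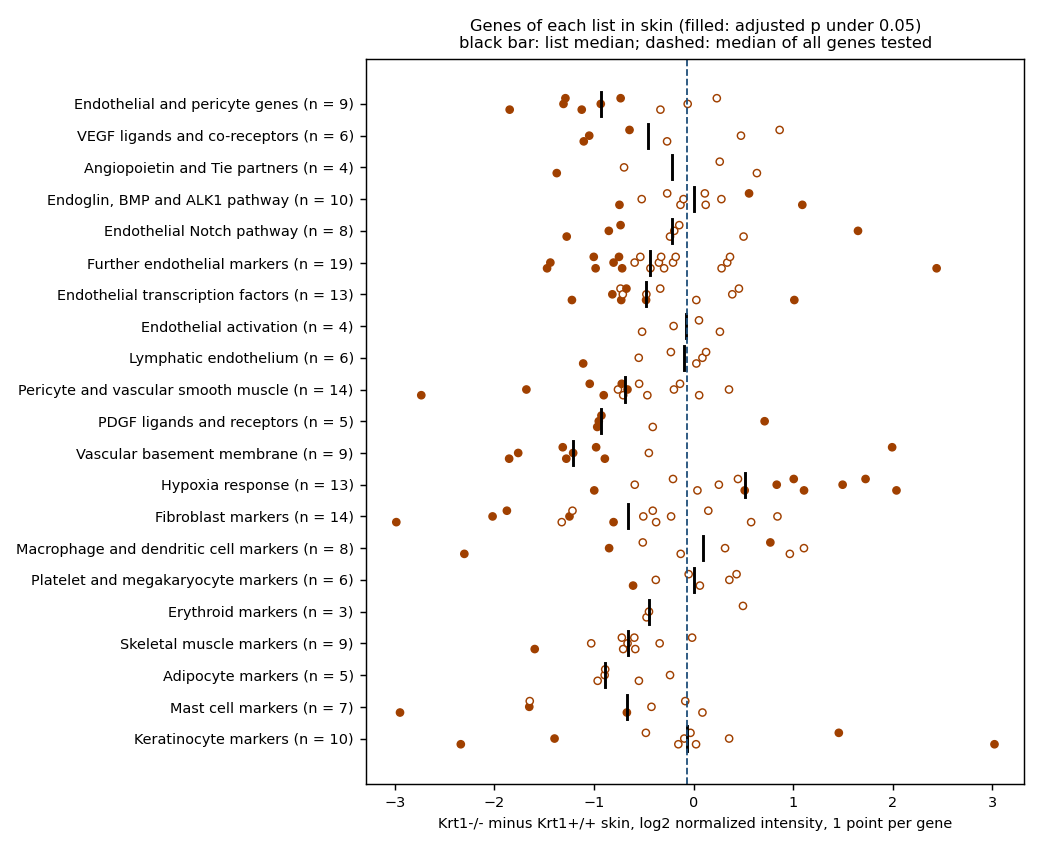
Difference between Krt1-/- and Krt1+/+ skin in log2 normalized intensity for the genes of each list, 1 point per gene; filled points have an adjusted p under 0.05, the black bar is the list's median and the dashed line the median of all genes tested. The endothelial and pericyte genes (median -0.93) and the vascular basement membrane genes (-1.21) lie to the left and the hypoxia genes (0.51) to the right. Lists of other cells and roles also lie to the left: PDGF (-0.93), adipocyte (-0.89), pericyte and vascular smooth muscle (-0.69), mast cell (-0.67), skeletal muscle (-0.66) and fibroblast (-0.65).

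Some markers of other dermal cells were lower in the same arrays, and their part in the result was not tested. Sums over a list are given here on another scale than the bead intensities above, as the background-corrected and quantile-normalized values with their offset of 16, added up on a linear scale. On that scale the 14 fibroblast markers summed to 57934 to 61104 in Krt1+/+ skin and 34132 to 35627 in Krt1-/- skin, and 5 of the 14 were lower and none was higher, with a median of -0.65, beside the 15.9% of all genes that were lower. Col6a2, a collagen VI chain, fell by 2.99 (limma adjusted p 1.3e-05; a further probe at -0.78), the surface protein Thy1 by 1.88 (adjusted p 0.00022), Col1a1 by 2.02 (adjusted p 0.0164) and the factor Twist2 by 1.25 (adjusted p 0.0165). In epidermis 3 of the 14 fibroblast markers were higher and 2 were lower, with a median of 0.41, beside 15.1% and 16.9% of all genes. For Col6a2, Thy1, Col1a1 and Twist2 the genotype difference in epidermis minus that in skin ran from 1.85 (Twist2) to 4.25 (Col1a1). For each of these genes it was larger in size than the fall in skin, so the epidermis value had the opposite sign. This contrast is also the contrast between the 2 array sets. The 9 measured members summed to 2040 to 2726 in Krt1+/+ skin and 1127 to 1831 in Krt1-/- skin. Mast cell markers summed to 16555 to 21093 and 10207 to 12403, and 3 of 7 were lower, among them the proteases Tpsb2 (-2.95, adjusted p 0.00022) and Mcpt4 (-1.65, adjusted p 0.00836). In epidermis 4 of the 7 were higher and none was lower, with a median of 1.30, beside 15.1% of all genes higher.

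The counts for other cell types stand beside 30.2% of all genes that passed in either direction. Of 9 skeletal muscle markers 1 was lower (Ckm, -1.60, limma adjusted p 0.00849) and all 9 had differences below 0 (median -0.66), while their sums overlapped, 60728 to 101265 and 46545 to 87886. None of 5 adipocyte markers passed, although all 5 had differences below 0 (median -0.89; Cidec -0.96, Pparg -0.89, Adipoq -0.89 and Lpl -0.55, adjusted p 0.0889 to 0.422). Of 8 macrophage and dendritic cell markers 2 were lower, Cd74 (-2.30, adjusted p 6.4e-05) and Mrc1 (-0.85, adjusted p 0.0308), and 1 was higher, Cd163 (0.77, adjusted p 0.0451). Blood itself was measured by 3 erythroid markers, none of which passed (Hba-a1 -0.45, Alas2 -0.47 and Slc4a1 0.50, adjusted p 0.596 to 0.723), and by 6 platelet markers, of which 1 was lower (Itga2b, -0.61, adjusted p 0.0447, with a further probe at -0.09). Of the 6 platelet differences 3 were below 0 and 3 above. The platelet sums were higher in Krt1-/- skin without overlap, at 3217.5 to 3490.8 against 2074.6 to 2999.2 in Krt1+/+ skin. Keratinocyte markers summed to 42158 to 50770 and 36596 to 44310, with 2 of 10 lower (Krt15 -2.34, Krt5 -1.40) and 2 higher (Perp 3.02, Itga6 1.46). Their genotype difference in epidermis minus that in skin was 1.37 for Krt15, 2.88 for Krt5, -5.68 for Perp and -3.17 for Itga6. For Krt5, Perp and Itga6 it was larger in size than the skin difference, so the epidermis value had the opposite sign.

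Across the 12 arrays the members kept close to a common profile. The correlation of each gene with the mean of the standardised profiles of the 9 measured members, to which it contributes, ran from 0.790 for Tie1 and 0.936 for Flt1 to 0.995 for Cdh5. Outside the list, the 5 genes with the highest correlation were Ldb2 (0.996), a LIM-domain-binding cofactor, Aplnr (0.994), Mrgprf (0.994), an orphan receptor, Zfp521 (0.994), a zinc finger factor, and Abca8a (0.993), a lipid transporter. Each was near the detection limit in both epidermis groups (mean log2 4.27 for Abca8a to 4.80 for Zfp521) and had a difference between the skin groups of -1.32, -1.47, -1.73, -1.01 and -1.01, in that order. These correlations mostly describe the step from epidermis to skin, which all 12 arrays share, and were not tested.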

How the data were processed

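Total RNA was labelled with biotin and hybridised to Illumina arrays, per the labels' protocols. The authors deposited a bead intensity and a detection p-value per probe and array, per the file headers, with no background subtraction or scaling visible in the values. A second deposited table holds intensity values normalized by the authors, on a linear scale; how is not stated in the labels or headers, every array has the same median (99.2), and its ranks equal those of the first table (rank correlation 1). It served as an alternative.

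The bead intensities were corrected and quantile-normalized with neqc (offset 16) in limma 3.58.1 (R 4.3.3), which gives log2 values. The 21712 probes with a detection p under 0.05 on at least 3 of 12 arrays were fitted with limma on 4 group means (8 residual and 5.59 prior degrees of freedom), with Benjamini-Hochberg adjustment over all of them and a call at an adjusted p under 0.05. Genes (12099) were read by their brightest kept probe. Of all probes, 34885 carry 1 symbol in the annotation, 18 several and 10378 none. "At least" folds compare the brighter mean with the higher of the dim probe's value and the array's lowest detected signal. The fit was tested on simulated data. The number of arrays limits the precision.

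Named were all members, Krt1, genes among the 4 of each list with the smallest p, and the 5 genes most like the members' mean profile. Fewer were named of the skeletal muscle, platelet, mast cell, and macrophage and dendritic cell lists, and only genes that passed. Members and lists were chosen with earlier results of these data known. Replicate numbers did not pair the arrays: 3 of 18 same-numbered pairs had correlated deviations above 0.1 (range -0.249 to 0.287). Differently numbered pairs ranged from -0.174 to 0.228. Krt1-/- epidermis replicates 1, 2 and 3 correlated with Krt1-/- skin replicates 3, 2 and 1 at 0.218, 0.287 and 0.228. The other pairs of these groups lay below 0. The fit treated these arrays as unlinked, and a link under other numbers was not tested. Alternatives varied background correction, scaling, filter, probe choice, variance model, arrays in the fit, a replicate block and each array left out. Figures were drawn with matplotlib 3.10.9.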

Additional observations from a re-analysis of the deposited data

Results flagged for a closer look

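The genotype difference in epidermis minus that in skin passed the test of the difference itself for 6 probes of 5 members. It was 2.00 for the brighter Pecam1 probe (limma adjusted p 6.1e-05), 1.12 and 0.71 for the brighter and dimmer Cdh5 probes (0.00254 and 0.0381), 1.44 for Tie1 (0.00166), 1.37 for Eng (0.00364) and 1.18 for Pdgfrb (0.00118). The dimmer Pecam1 probe, at 0.76, did not pass (limma adjusted p 0.0834). In each of the 6 the skin difference was below 0 while the epidermis values lay at or near the detection limit, so the difference restates the fall in skin. Beside these, 16.1% of all genes tested passed in the same direction in this contrast, which is also the contrast between the 2 array sets.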

How the results depend on the processing

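Of 393 comparisons of a count of calls with its value under an alternative, 392 stayed within the allowed 1.5 times. The exception was the genes called for genotype averaged over both tissues, 1789 with median centring against 2766, of which 61.3% against 45.8% were higher. The 392 include member counts that were 0 in both, and the rule would also allow 4 members against 6. Small member counts could therefore hardly fail it. In skin 5 to 6 members were lower under every alternative and none was higher. Member values near 0 changed sign. The skin difference of Emcn was 0.0232 with median centring and -0.16 to 0.096 when each array was left out in turn, with 0.096 without Krt1+/+ skin replicate 3 and 0.0526 without Krt1-/- skin replicate 1. That of Esam was -0.60 to 0.0685, the latter without Krt1-/- skin replicate 1. The tissue difference of Tie1 in Krt1-/- mice was -0.0363 to 0.25, with -0.0112 and -0.0363 without Krt1-/- epidermis replicates 1 and 3 and -0.0157 without Krt1-/- skin replicate 1. The cause was not tested. The size for Pecam1 in skin was -1.25 without background correction and -1.18 as the mean of its probes. With the replicate number as a block, 6 members were lower in skin (3522 genes called against 3650), Tek had an adjusted p of 0.0317 and the averaged contrast called 4 members instead of 5; the numbers did not pair the arrays. The detection limit leaves changes in epidermis unmeasured, Kdr unread and the tissue ratios of undetected genes as bounds.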
